A study of Mus musculus with 3 samples.

Results

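H3K27ac, an acetylation of histone H3, sits on nucleosomes beside promoters and enhancers in use, and a MACS2 peak is a stretch where the immunoprecipitated fragments pile up above their surroundings. The regions described here are the autosomal places where the 2-month library of tibialis anterior (TA) muscle had such a peak and the 10- and 20-month libraries had none. Peaks of the 3 lists were merged into 1 region wherever they overlapped or touched. Regions on chromosomes 1 to 19 were kept, without the stretch of chromosome 4 from 139.13 to 139.44 Mb, and a member had to hold a 2-month peak and no later peak. The rule gave 3616 members among 51021 autosomal regions. They made up 23.1% of the 15664 autosomal regions with a 2-month peak (95% Clopper-Pearson interval 22.4 to 23.8%). This count comes from the rule itself and is a description, not a result about age.

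The mice were C57/BL6 and the labels name no genetic change or treatment for any group. By the labels they were taken at 2, 10 or 20 months of age, while the study's methods give the middle group a range that starts at 10 months. Each age has 1 library of whole TA muscle, made with 1 H3K27ac antibody, and how many animals went into it is not given in the sources used here. No test of age can therefore be made, and every interval below covers counting error only. In chromatin of a whole muscle, a lower signal can come from fewer cells of a type or from less acetylation per cell, and these cannot be told apart. The tissue rests on the tissue label, since the protocol text in the labels speaks of SCs, and no muscle marker gene was checked because mm9 gene positions were at hand only for a list of extracellular matrix (ECM) genes.

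Promoters are short stretches before a gene's transcription start site (TSS). Enhancers can lie many kilobases away, and muscle holds enhancers of myofibers, fibroblasts, endothelial cells and leukocytes side by side. H3K27ac at an enhancer usually occupies the nucleosomes on each flank of a central gap, so that 1 element can appear as several neighbouring peaks.

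The members' own mm9 sequence was not used here. For a pair of ECM genes with a 2-month-only region at or next to the start, the 250 bases before the TSS were taken from RefSeq (GRCm38.p6, strand of the gene) by symbol, where the table lists 1 start and the gene has the same length as in mm9. They are shown because the region at *Sparc* covers its whole upstream stretch, whereas the region at *Timp2* lies just inside the gene, and because the 2 stretches differ in base composition. Each is written from 5′ to 3′ up to the base before the TSS, with CG pairs in capitals.
Sparc: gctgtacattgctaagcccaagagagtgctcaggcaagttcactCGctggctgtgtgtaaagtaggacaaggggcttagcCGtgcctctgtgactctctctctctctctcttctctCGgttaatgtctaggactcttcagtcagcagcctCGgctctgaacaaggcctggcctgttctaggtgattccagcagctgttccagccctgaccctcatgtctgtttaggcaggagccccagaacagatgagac
Timp2: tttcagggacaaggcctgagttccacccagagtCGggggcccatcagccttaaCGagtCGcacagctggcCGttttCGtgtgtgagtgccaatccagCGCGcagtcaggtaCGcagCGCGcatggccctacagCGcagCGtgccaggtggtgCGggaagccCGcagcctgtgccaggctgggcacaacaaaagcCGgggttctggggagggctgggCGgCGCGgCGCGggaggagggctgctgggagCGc
The *Sparc* stretch holds 4 CG pairs and the *Timp2* stretch 21, where the median over 32851 RefSeq promoter stretches of this length is 6. The letters GGGCGG, the core of a GC box, were found on either strand at *Timp2* and not at *Sparc*, and 32.7% of all stretches hold them. The letters GAGAGAGA were found at *Sparc* on the opposite strand, where the stretch printed reads CTCTCTCT, and not at *Timp2*, against 3.26% of all stretches. TATAAA was in neither of them and in 12.4% of all. A match is only a description of these letters.

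The members were low and narrow peaks. Summit heights are given as whole reads, recovered from the deposited fold and −log10 p, and as summit coverage, which relates them to the average pileup over the genome in that library, the genome mean (1.26 reads at 2 months). The members' summits had a median of 12 reads, with quartiles of 11 and 15 and a range of 8 to 268. In summit coverage the median was 9.52 times the genome mean, with quartiles of 8.72 and 11.9. A count of 12 reads has an exact Poisson 95% interval of 6.20 to 21 reads, so most members could not be ranked by height. The median width was 209 bp, with a range of 148 to 3388 bp. All members consisted of 1 peak, and together they covered 932 kb.

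The 12048 2-month regions that held a later peak were higher and wider. Their 2-month summits had a median of 14 reads, or 11.1 times the genome mean, and their median width was 301 bp. A summit of at least 10 times the genome mean was present at 1665 members (46.0%) and at 70.2% of the 2-month regions with a later peak. The difference in height did not hold for each class of the latter. The 210 regions with peaks at 2 and 10 months only had a median of 12 reads (9.52 times the mean) and 227 bp. Of these, 45.7% reached 10 times the mean. Of the members, 1978 (54.7%) were narrower than the narrowest 10-month peak, which was 222 bp wide, against 30.7% of the other 2-month regions. Those 222 bp are a floor of the 10-month list, as 148 bp are of the 2-month list. Exactly 222 bp were held by 649 of the 5387 regions with peaks only at 10 months, and exactly 148 bp by 507 members. Heights and widths entered the peak calls on which the rule rests, so these differences were not tested.

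**Figure D1:**
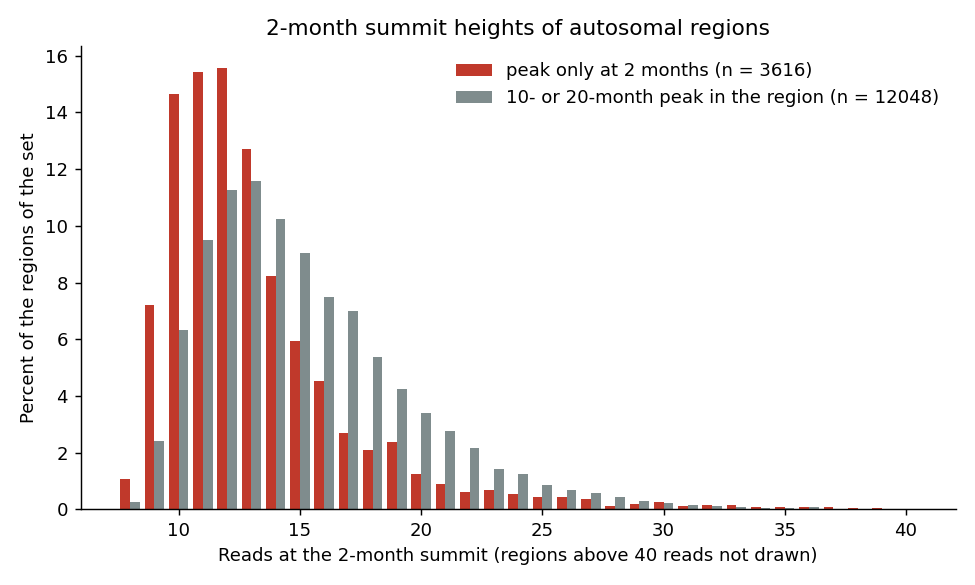
Percent of regions (vertical axis) by the number of reads at the 2-month summit (horizontal axis, 8 to 40 reads), for regions with a peak only at 2 months and for 2-month regions that also held a 10- or 20-month peak. The members crowd at the low end, with a median of 12 reads against 14.

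The share of 2-month regions that were members fell with summit height and then turned. It was 43.3% at 8 to 10 reads (830 of 1915 regions), 30.9% at 11 to 12 reads, 20.7% at 13 to 15 reads, 12.4% at 16 to 20 reads and 11.3% at 21 to 30 reads (163 of 1443; interval 9.71 to 13%). At 31 reads or more it was 29.6% (63 of 213 regions; interval 23.5 to 36.2%). Of those 63 members, 47 lay outside the first 100 kb of assembled sequence of the chromosomes. By width the share fell from 40.9% of the regions at the 148-bp minimum to 6.20% of those of 1000 bp or more (17 of 274), with no turn.

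The 3 lists differ in how the background under a summit was made, and this touches every member. At 2 months the background equalled the genome mean at 78.3% of all peaks and at 75.3% of the members. At 10 and 20 months it equalled the mean at 2.87% and 4.89% of peaks, and its median was 3.20 and 2.94 times the mean. All later backgrounds above the mean that could be solved were whole numbers of the library's own reads in a 10-kb window. At 2 months only 3.38% of the backgrounds above the mean were, and all of them lay on whole multiples of a step of 0.405 reads, counted in a window of the fragment length, of 1 kb or of 10 kb. Folds and q values were therefore compared within a list only. The lists also differ in length, with 17884, 35221 and 44752 peaks at 2, 10 and 20 months.

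At the border of the rule, very little separated members from other regions. A later peak came within 10 bp of 41 members, within 50 bp of 187 and within 100 bp of 348. On the outer side, 29 2-month regions overlapped their later peak by at most 10 bp, 178 by at most 50 bp and 433 by at most 100 bp. Just inside, chr11:76659991-76660475 (19 reads), chr12:99975584-99975798 (15 reads), chr14:21712941-21713094 (10 reads) and chr3:35653196-35653546 (16 reads) lay 1 bp from a 20-month peak, and chr10:36857453-36857808 (17 reads) 2 bp. Just outside, the 2-month peaks in chr12:114214838-114215537 (15 reads), chr15:100466732-100467117 (11 reads) and chr5:115461319-115462222 (27 reads) only touched a later peak, and those in chr16:17233727-17234419 (15 reads) and chr9:108354684-108355097 (10 reads) shared 1 bp with one.

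Most members lay close to a region with a peak at a later age. The nearest 10- or 20-month peak was at a median of 694 bp, with quartiles of 238 and 2614 bp. A later peak lay within 200 bp of 749 members (20.7%), within 1 kb of 2082 (57.6%) and within 10 kb of 3247 (89.8%; interval 88.8 to 90.8%). Only 113 members had none within 100 kb. A 20-month peak lay within 10 kb of 88.4% of members and a 10-month peak of 82.4%, the 20-month list being the longer.

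Regions with peaks at 1 later age only were more remote from the peaks of the other ages. Of the 5387 autosomal regions with peaks only at 10 months, which are 16.1% of the 10-month regions, 68.4% had a 2- or 20-month peak within 10 kb. Of the 12666 with peaks only at 20 months, 30.3% of the 20-month regions, 56.8% had a 2- or 10-month peak within 10 kb. The members faced lists with more peaks than those sets did, so the shares are given side by side without a test. With lists cut to equal length, 64.3% of the 5990 2-month-only regions had a later peak within 10 kb. The shares of the other sets were not recomputed at equal length, so the order given holds for the full lists only. The 2-month regions with a later peak had a later peak of another region within 10 kb in 83.2% of cases and within 1 kb in 66.7%.

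**Figure D2:**
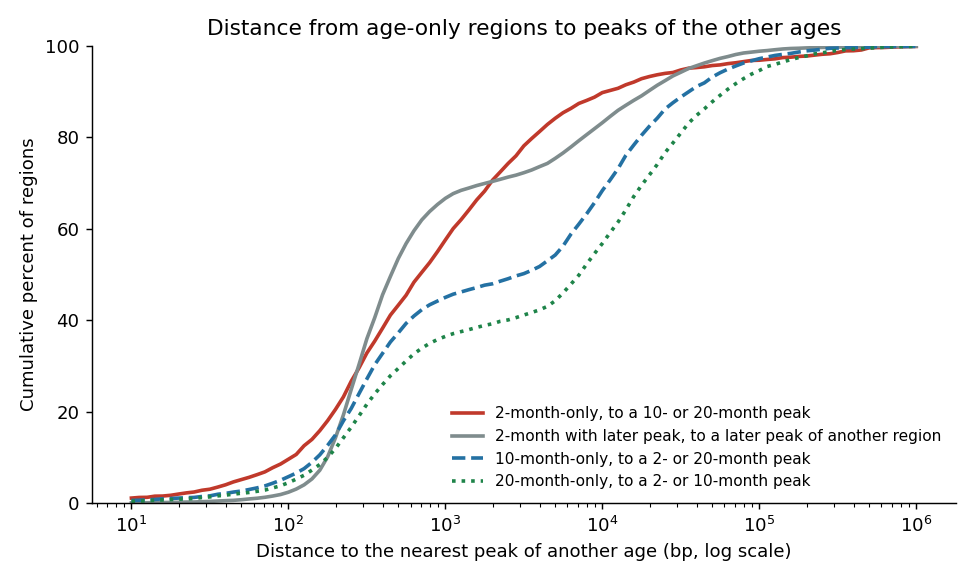
Cumulative percent of regions (vertical axis) with a peak of another age within a given distance (horizontal axis, bp, log scale), for regions with peaks only at 2, only at 10 or only at 20 months, and for 2-month regions with a later peak, measured to another region. At 10 kb the 2-month-only curve stands at 89.8%, above the 10-month-only curve at 68.4% and the 20-month-only curve at 56.8%.

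Later peaks flanked 537 members (14.9%) within 1 kb on each side and a further 1545 (42.7%) on 1 side. Counting every kind of region other than a member, 2128 members had one within 1 kb. The nearest such region held peaks at all 3 ages in 946 cases (44.5%), although such regions were 22.2% of all other autosomal regions. It held peaks at 10 and 20 months in 423 cases (19.9%, against 36.5% of all other autosomal regions). It held them only at 20 months in 347 (16.3% against 26.7%) and only at 10 months in 100 (4.70% against 11.4%). Peaks at 2 and 20 months were held in 269 cases (12.6% against 2.77%) and at 2 and 10 months in 43 (2.02% against 0.443%). A 2-month peak was thus also present next door for 1258 of the 2128 (59.1%). Where the neighbour held peaks at all ages, the member's 2-month summit was the lower of the pair in 601 of 946 cases, and the median ratio of reads was 0.857.

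Beside a later peak, a summit had to be high to be called at 10 or 20 months. The background under the nearest later peak and the smallest −log10 p in that list together give the fewest reads that would have passed at a summit with the same background. For the 1638 members with a 10-month peak within 1 kb, that background had a median of 11.9 reads (5.31 times the genome mean), and the reads needed had a median of 27, or 12.0 times the mean (quartiles 8.92 and 16.5). These members had a median 2-month summit coverage of 10.3 times the mean. With the same coverage at 10 months, 956 of them (58.4%) would have stayed below the reads needed. For the 1967 members with a 20-month peak within 1 kb, the reads needed had a median of 29 (11.6 times the mean; quartiles 8.39 and 16), and 1172 (59.6%) would have stayed below. Where the background equalled the genome mean, 10 reads were enough in each later list, or 4.46 and 3.99 times the mean.

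The same calculation limits what the lack of a later peak can show. The highest coverage that would still have gone uncalled was 1.12 times the 2-month coverage at 10 months in the median (quartiles 0.716 and 1.64) and 1.10 times at 20 months (quartiles 0.724 and 1.60). Among the 1523 members with peaks of both later lists within 1 kb, this limit was at or above 1 at both ages for 798 (52.4%), so that no decrease follows from the missing peak. It was below 1 at both ages for 677 (44.5%), and below 0.5 for 129 (8.47%), of which 12 lay in the first 100 kb of sequence of their chromosome. The limits carry the counting error of the 2-month summit. Coverage is also scaled by the smallest peak width of each list, which was 148, 222 and 178 bp at 2, 10 and 20 months. Equal coverage in different lists therefore need not be equal acetylation, and the effect on the limits was not tested. The background under the neighbour stands in for that under the member, and how well it does so where no peak was called was not tested.

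**Figure D3:**
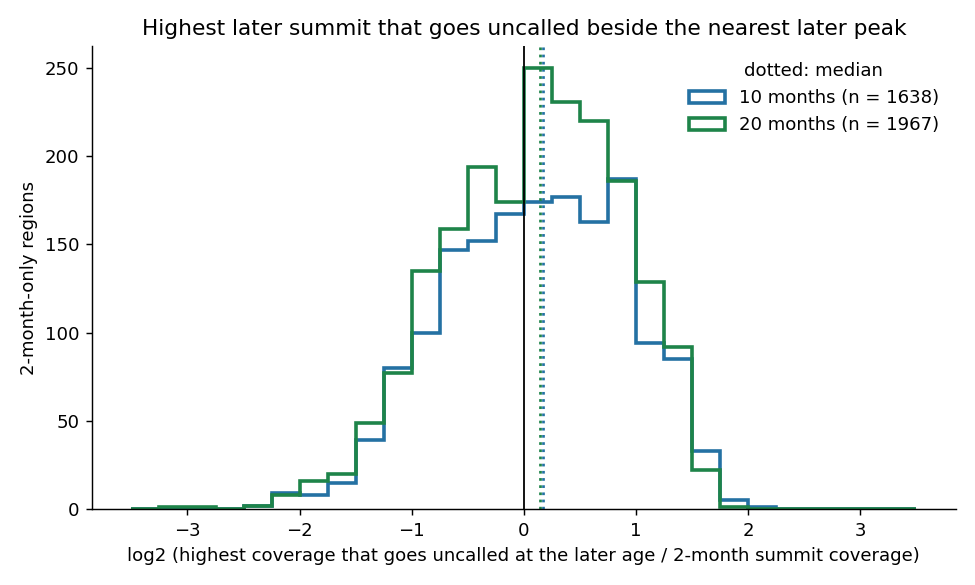
Number of 2-month-only regions (vertical axis) by the log2 ratio of the highest summit coverage that would have gone uncalled at 10 or 20 months to the 2-month summit coverage (horizontal axis), for members within 1 kb of a peak of that age. Values to the right of the line at 0 leave room for an equal or higher later summit without a peak, and the medians (dotted) correspond to ratios of 1.12 and 1.10.

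Height varied with isolation. Leaving out the first 100 kb of sequence, members within 1 kb of a later peak had a median of 10.3 times the genome mean, those between 1 and 10 kb 8.72, those between 10 and 100 kb 10.3 and the 112 beyond 100 kb 15.1. A summit of at least 20 times the mean was reached by 2.03%, 0.173%, 7.84% and 24.1% of them in that order. The group beyond 100 kb thus had the highest median of these 4 groups and the smallest median width, at 176 bp. By number, 27 of its members reached 20 times the mean, against 42 of those within 1 kb.

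The 10 highest members of all lay on chromosome 9 between 3.0 and 3.1 Mb, in the first assembled sequence after the centromere, which is rich in repeats on mouse chromosomes. The highest, chr9:3021864-3022294, had 268 reads (213 times the genome mean; exact Poisson interval 188 to 240). This stretch held 33 2-month regions, of which 13 were members, with 89 to 268 reads, a median of 178 times the mean, and a later peak 193 to 1051 bp away. Their own 2-month background was 12.2 to 60.7 times the mean. At the 17 regions of the stretch with peaks at all ages, median summits reached 228, 94.5 and 98.3 times the mean at 2, 10 and 20 months. In reads, these summits spanned 253 to 296, 142 to 363 and 170 to 336. No autosomal 2-month region had more than 296 reads. Whether a ceiling on summit reads shaped these medians was not tested, so they are no measure of a change with age. The Poisson interval given for the highest member takes no account of such a ceiling. Over the autosomes, the first 100 kb held 29 members of 57 2-month regions, the others on chromosomes 4 (3), 6 (1), 11 (5), 17 (3) and 18 (4). How reads that align to several places were handled is not stated in the sources used here. The genome mean, computed from uniquely mapped reads, equalled the background at 78.3% of all 2-month peaks. The part of repeats in these heights was not tested.

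Outside those stretches the highest member was chr17:36621559-36621948, with 83 reads (65.8 times the mean; interval 52.4 to 81.6), a background at the mean and no later peak within 169 kb. It was followed by chr18:7320884-7323597 (68 reads, 2714 bp wide, nearest later peak 285 kb away), chr2:27354404-27357791 (62 reads), chr17:29825959-29826406 (61 reads) and chr14:45292664-45293760 (57 reads, 314 kb away). The region on chromosome 2 was also the widest member, at 3388 bp, and had a later peak at 1.37 kb. Those on chromosomes 14 and 18 were not alone. The next member lay 107 bp away on chromosome 14, with 47 reads over 2183 bp, and 365 bp away on chromosome 18, with 47 reads over 453 bp.

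A set chosen after the values were seen holds the members with at least 20 times the genome mean, more than 10 kb from any later peak and outside the first 100 kb. These 47 members fell into 33 places more than 10 kb apart, on 17 of the 19 autosomes. Their median was 27 times the mean, and 32 of them had a 2-month background at the genome mean. At such a place 10 reads would have made a peak at either later age if the later background were also at the mean, so that a coverage of 4.46 times the mean would have been seen at 10 months and 3.99 at 20 months. Examples are chr18:85885447-85885971 (48 reads, 764 kb from a later peak) and chr5:109611197-109611425 (45 reads, 278 kb), each with a 2-month background at the mean. Whether reads from repeats entered these summits was not tested.

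**Figure D4:**
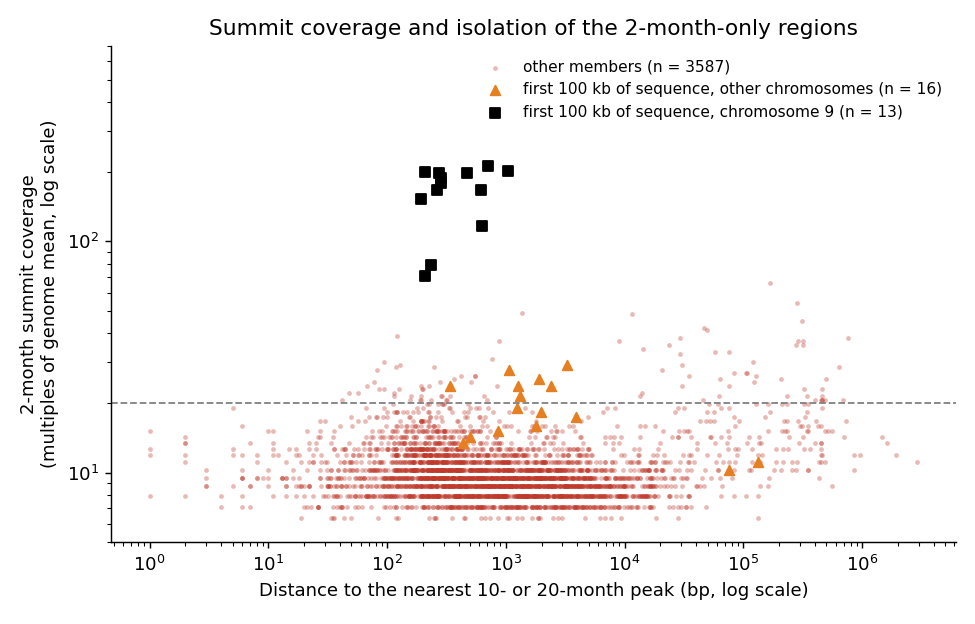
Summit coverage at 2 months (vertical axis, multiples of the genome mean, log scale) against the distance to the nearest 10- or 20-month peak (horizontal axis, bp, log scale) for the 3616 members, with those in the first 100 kb of sequence marked. The 13 marked members of chromosome 9 stand above 70 times the mean within about 1 kb of a later peak, and the share of summits above the dashed line at 20 is larger beyond 100 kb (23.9%) than within 1 kb (2.64%).

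Some members lay in groups and others alone. Another member lay within 10 kb of 1829 members (50.6%) and within 1 kb of 991 (27.4%). Among the 2-month regions with a later peak, which are the larger set, 52.9% had another of their kind within 10 kb and 39.1% within 1 kb. Runs of consecutive autosomal regions, with no region of another kind between them, left 2130 members (58.9%) alone and joined 1486 members (41.1%) into 552 runs of 2 or more, and 42 runs of 5 or more held 273 members.

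The longest run had 15 members over 16.8 kb at chr4:137026067-137042875. Its summits had 10 to 17 reads with a median of 12, its peaks were 170 to 663 bp wide, 13 of the 15 backgrounds equalled the mean, and later peaks lay 546 bp to its left and 364 bp to its right. A run of 12 spanned 21.7 kb at chr1:74060004-74081717 with 9 to 16 reads. Runs of 10 lay at chr7:139977989-140002319 and chr18:69754288-69759359, the latter within 5.07 kb. A run of 11 on chromosome 8 (chr8:56197218-57997570) differed from these. Its summits had 14 to 29 reads with a median of 24, and only 2 of the 11 backgrounds equalled the mean. No later peak lay within 451 kb of this run, and a gap of 1788 kb lay within it.

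On a larger scale, 71 1-Mb bins with 10 or more members held 992 of them (27.4%), and the same bins held 12.6% of the other 2-month regions. The bins were picked by their members, so the difference is a description. The fullest, chromosome 10 from 80 to 81 Mb, had 31 members among 83 2-month regions, and chromosome 4 from 137 to 138 Mb, where the longest run lies, had 25 among 46. By chromosome the share of members ran from 19.3% on chromosome 16 to 30.6% on chromosome 18 (151 of 494; interval 26.5 to 34.8%), and without the first 100 kb the share on chromosome 18 was 30.1%.

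The ECM genes are the group whose positions were known on mm9. The matrix around myofibers and capillaries is built from collagens, laminins and glycoproteins, is cut by metalloproteases, and is held by integrins and other adhesion molecules. A region was assigned to the nearest TSS of the list if it lay within 100 kb. Of the 83 autosomal ECM genes, 47 had a 2-month region and 19 had a 2-month-only region. The 49 members assigned were 22.8% of the 215 2-month regions there (interval 17.4 to 29.0%), a share near the 23.1% over all autosomes. Their median was 9.52 times the genome mean, with a range of 6.34 to 23.8, and 26 of the 49 had a later peak within 1 kb. Every gene with a member also had a 2-month region with a later peak.

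Counts by family were small. Collagen genes had 10 members among 18 2-month regions (55.6%; interval 30.8 to 78.5%), and the protease inhibitors *Timp2* and *Timp3* had 9 among 19 (47.4%; interval 24.4 to 71.1%). Matrix glycoproteins and proteoglycans had 16 among 56 (28.6%), adhesion molecules 3 among 20, matrix proteases 4 among 30, integrins 5 among 46 (10.9%; interval 3.62 to 23.6%) and laminins 2 among 22. Neighbouring regions share a locus and are not independent, so the intervals are too narrow, and no difference between families was tested.

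At 5 genes, 8 members lay within 2.5 kb of the TSS, among 38 2-month regions so close. At *Sparc*, which encodes a collagen-binding glycoprotein of the matrix, the member at chr11:55233489-55233851 reached over the TSS and the whole upstream stretch printed above, with 13 reads (10.3 times the mean) and a 10-month peak 181 bp away. At *Timp2*, an inhibitor of matrix metalloproteases, chr11:118216099-118216589 began 136 bp inside the gene with 14 reads (11.1 times) and lay 199 bp from a 20-month peak. At *Ctnnb1*, the gene of β-catenin, which links cadherins to the cytoskeleton and acts in Wnt signalling, chr9:120842643-120842824 lay over the TSS with 16 reads (12.7 times), 199 bp from a 20-month peak. At *Adamts5*, a protease of proteoglycans, chr16:85899828-85900049 lay 1321 bp inside the gene with 12 reads, 102 bp from a 20-month peak. Each of these 4 members thus had a later peak at most 199 bp away.

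*Col4a1* and *Col4a2* encode the chains of the main basement membrane collagen and are read in opposite directions from a shared promoter region. All 4 members assigned to *Col4a2* lay 1.08 to 2.43 kb before its TSS, which places them in the gene body of *Col4a1*. From the farthest to the nearest they had 13, 15, 12 and 17 reads, and the nearest later peak lay 343 to 1691 bp away. The 3 members assigned to *Col4a1* lay 54.0 to 67.2 kb before its TSS, inside *Col4a2*, with 12, 8 and 12 reads from the nearest to the farthest and the nearest later peak 12.7 kb away. Both genes lie at the same locus, which holds all of the 10 collagen members except the 3 at *Col1a1*.

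The genes with the most members held them at various distances. Assignment was to the nearest TSS of the ECM list only, so genes outside the list may lie closer or in between. *Ecm1*, a secreted glycoprotein that binds other matrix proteins, had the most, with 9 among 20 2-month regions, all 61.6 to 84.2 kb downstream of the TSS and with 8 to 30 reads. Its highest, chr3:95462732-95463460, reached 23.8 times the mean and lay 68 bp from a 10-month peak. *Timp2* had 5 among 12, of which 4 lay together 73.1 to 76.2 kb upstream with 11 to 15 reads. *Sparc* had 5 among 10, of which 4 touched the gene and 1 lay 49.7 kb upstream with 19 reads. *Timp3*, a matrix-bound inhibitor, had 4 among 7, all inside the gene, with 11 to 16 reads. *Col1a1*, a chain of the main fibrillar collagen, had 3 among 6, of which chr11:94852406-94852719 had 23 reads (18.2 times) 54.9 kb downstream.

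The remaining genes had 1 or 2 members. *Itgb2* (10 regions) and *Itgal* (14), which encode the chains of a leukocyte integrin, had 2 and 1. The endothelial adhesion gene *Pecam1* had 2 among 10, the metalloprotease genes *Mmp11* and *Mmp9* 2 among 5 and 1 among 7, and the laminin-binding integrin gene *Itga3* 2 among 4. *Thbs3*, a thrombospondin gene, had 1 among 10, and the laminin chain genes *Lamc1* and *Lama1* had 1 each among 4 and 2. *Tgfbi*, a matrix protein induced by TGF-β, had 1 among 2, with 27 reads (21.4 times the mean), 114 bp from a 10-month peak and 93.4 kb from the TSS. *Lamb2* had the most 2-month regions with no member, 12.

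**Figure D5:**
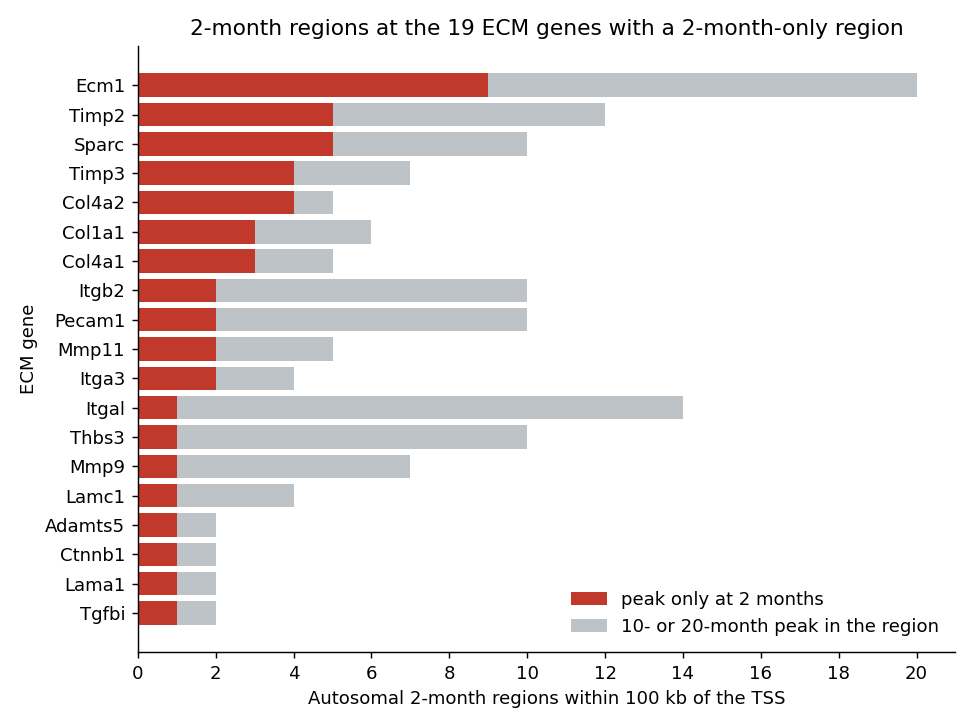
Number of autosomal 2-month regions within 100 kb of the TSS (horizontal axis) at the 19 ECM genes with a 2-month-only region (vertical axis), split into regions with a peak only at 2 months and regions that also held a later peak. *Ecm1* has 9 of 20 and every gene has at least 1 region of the second kind.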

How the data were processed

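The data are 3 deposited peak lists on mm9, 1 per age. Per the labels, reads were aligned with Bowtie2, for which no version is given, and peaks were called with MACS2 2.1.0. Whether a control library was used is not given in the sources used here. The libraries had 15933343, 18888715 and 26302098 uniquely mapped reads at 2, 10 and 20 months. The deposited columns hold the position of each peak, a score (10 times the −log10 q, cut to a whole number, not used further), a fold ratio of summit to background, a −log10 p and a −log10 q, all by the authors.

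Whole summit reads and the background were solved from fold and −log10 p (tolerance 0.001), which was tested on simulated data. A single peak of each later list had no solution within this tolerance and kept the values of the closest candidate. Genome mean coverage was uniquely mapped reads times the smallest peak width over the MACS2 mouse genome size. The same reads were also scaled to library depth (RPM). Shares have Clopper-Pearson and reads exact Poisson 95% intervals. Positions of the ECM genes on mm9 and library depths came from the study's supplementary lists. Genes named are the ECM genes with a member within 2.5 kb of the TSS and the 15 with the most members, the other genes with a member and *Lamb2* being added after their values were seen, and regions named are the highest, the widest, the longest runs and those nearest the border of the rule. The members and lists were chosen with earlier results of these data known. Tables were handled with pandas 2.3.3 and numpy 2.4.6, statistics with scipy 1.17.1 and plots with matplotlib 3.10.9, all under Python 3.11.15.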

Additional observations from a re-analysis of the deposited data

Results flagged for a closer look

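Outside the rule, the 2-month list held regions without a later peak at a far higher share than the 23.1% of the autosomes. On chromosome X these were 472 of 554 2-month regions (85.2%), with a median of 20 reads and a highest summit of 103, although the 10- and 20-month lists held 696 and 887 regions there. On chromosome Y they were 75 of 76 (98.7%), with a median of 26 reads and a highest summit of 121, and each later list held 1 region. In the stretch of chromosome 4 from 139.13 to 139.44 Mb they were 116 of 122 (95.1%), with 8 to 25 reads, beside 4 regions at 10 months and 8 at 20 months. These regions are not members and enter no count of members above, while their peaks are part of the whole-list lengths and background shares. Each age has 1 library.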

How the results depend on the processing

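The number of 2-month-only regions moved with the merging distance, the threshold and the length of the lists. Merging peaks within 1 kb left 1117 (10.0% of 2-month regions), of which 71.8% had a later peak and 26.9% another member within 10 kb, at 10 ECM genes. Taking the 2-month peaks with the smallest 50% of q left 1136 (14.2%), with a median of 12.7 times the genome mean, 83.4% and 27.7% within 10 kb, and 9 ECM genes. Lists of equal length gave 5990 (37.9%), with 64.3% and 58.2% within 10 kb. Summits of at least 10 times the mean left 1665 (16.4%) at 11 ECM genes. Peaks as wide as the narrowest 10-month peak, chosen after seeing the data, left 1638 (16%), with a median of 10.3 times the mean and a later peak within 10 kb in 93.3%. At 1 kb and 100 kb the later-peak share was 57.6% and 96.9%, and the share with another member 27.4% and 70.4%. An outer limit of 50 kb left 11 ECM genes and none of the members at *Ecm1*. In RPM the median summit was 0.753. Leaving out the first 100 kb of sequence, also chosen after seeing the data, gave 3587 members, and all 6 results stayed within their intervals or within 1.5 times. Each age has 1 library, so no replicate could be left out. No paired analysis was possible because each age has only 1 sample and no test was made.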
